A study of Mus musculus with 6 samples.

Results

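Surfactant is the film of lipid and protein that lines the alveoli, and alveolar type 2 (AT2) epithelial cells make it. The genes examined here were 10 genes of that system, taken by name. They were the surfactant protein genes Sftpa1, Sftpb, Sftpc and Sftpd, the lamellar body and lipid handling genes Abca3, Lamp3 and Lpcat1, and Napsa, Slc34a2 and Etv5, which AT2 cells also express. They were 10 of the 16370 genes that could be tested in these lungs, and all 10 were well above background on each of the 6 arrays.

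The study asked how recombinant human thrombomodulin (rhTM) acts on lung injury in endotoxaemia. Thrombomodulin is a membrane protein of endothelial cells that binds thrombin and lets it activate protein C, and rhTM is a soluble form of it. Male C57BL6 mice, 10 weeks old and starved for 16 h, were given LPS i.p. at 20 mg per kg. The saline group then received saline, and the rhTM group rhTM at 30 mg per kg, 3 h and 24 h after LPS, and lungs were taken at 30 h from 3 mice of each group. Both groups had received LPS, and lungs of mice without LPS were not analysed here, so the values compare the groups with each other and say nothing of the effect of LPS itself. A single-colour Agilent mouse array was hybridised per mouse. The whole lung was used, so that fewer AT2 cells and less RNA per AT2 cell cannot be told apart in any value below.

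In the AT2 cell, surfactant lipid is loaded by the transporter ABCA3 into lamellar bodies, storage organelles whose membrane carries LAMP3. The hydrophobic proteins SP-B and SP-C are packed with the lipid, and NAPSA, an aspartic protease, takes part in processing the SP-B precursor. SP-A and SP-D are collectins, soluble lectins that bind microbes and their lipopolysaccharide. The promoters of several of these genes are bound by the transcription factors NKX2-1 and FOXA.

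Promoter sequences from RefSeq (build GRCm38.p6) were matched to 7 of the 10 genes, and those of Sftpc, Sftpd and Napsa were not used here. The 250 bases before the start site are printed for Sftpa1 and Sftpb, and for Lamp3 and Etv5, because the members of each of these pairs followed each other from array to array, as described further on. Capitals mark the letters GCNCTNNAG, a form of the NKX2-1 motif, and TGTTTNC, a form of the FOXA motif, searched on both strands. The stretches lie at chr14:41131538-41131787 on the plus strand for Sftpa1, chr6:72304360-72304609 on the plus strand for Sftpb, chr16:19706366-19706615 on the minus strand for Lamp3 and chr16:22439571-22439820 on the minus strand for the first of the 2 entries of Etv5. Each is written 5′ to 3′ towards the start site.
Sftpa1: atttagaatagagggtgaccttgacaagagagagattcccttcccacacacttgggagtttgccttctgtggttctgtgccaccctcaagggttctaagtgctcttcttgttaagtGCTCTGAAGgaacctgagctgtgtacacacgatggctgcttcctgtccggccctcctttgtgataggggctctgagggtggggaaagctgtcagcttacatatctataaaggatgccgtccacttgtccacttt
Sftpb: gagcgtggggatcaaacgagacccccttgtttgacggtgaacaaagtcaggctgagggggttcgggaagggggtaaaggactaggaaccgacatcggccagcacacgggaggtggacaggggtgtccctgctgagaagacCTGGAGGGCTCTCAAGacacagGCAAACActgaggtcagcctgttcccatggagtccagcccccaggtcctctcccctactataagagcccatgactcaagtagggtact
Lamp3: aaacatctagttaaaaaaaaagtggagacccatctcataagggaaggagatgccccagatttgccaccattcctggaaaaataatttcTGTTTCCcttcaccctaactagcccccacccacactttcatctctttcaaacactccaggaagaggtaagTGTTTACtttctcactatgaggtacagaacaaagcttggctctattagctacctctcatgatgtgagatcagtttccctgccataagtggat
Etv5: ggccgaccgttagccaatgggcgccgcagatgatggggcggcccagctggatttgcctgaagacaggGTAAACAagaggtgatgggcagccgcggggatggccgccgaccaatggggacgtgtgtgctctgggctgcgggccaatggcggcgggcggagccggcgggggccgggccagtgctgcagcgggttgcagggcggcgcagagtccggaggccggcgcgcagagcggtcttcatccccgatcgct

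The NKX2-1 letters were found in 2 of the 7 promoters, those of Sftpa1 and Sftpb, against 14.2% of 32851 mouse promoters of the same length. Counted from the start site, the match in Sftpa1 began at base -134. In Sftpb a pair of matches on opposite strands began at -110 and -103 and share letters, and so appear as 1 run of capitals. The FOXA letters were found in 3 of the 7, once in Sftpb, once in Etv5 and at 2 places in Lamp3, against 17.8% of all promoters. Neither was found in Abca3, Lpcat1 or Slc34a2, nor in the second entry of Etv5, which was left out of these counts. Such a match describes the letters and does not show binding.

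Each value given below is the processed signal of a gene's brightest probe divided by the 75th percentile of its array, so that 1 is the signal below which 75% of that array's probes lie. Probes differ in how well they hybridise, so values were compared between arrays for 1 probe and not between genes. The arrays had 36243 to 40647 of 56605 probes well above background, and 0 spots were saturated. The highest count was that of saline mouse 1. Its fitted slope of the spike-in controls was 0.83, against 1.07 to 1.09 on the other arrays. The part of this in its values was not tested. The arrays were hybridised on 2 slides, which were scanned at different times. Slide 2 held saline mouse 1 and rhTM mouse 3, and slide 1 the other four. A deposited table of the same arrays assigned a pair of them otherwise. Its column for saline mouse 1 equalled the scanner output of rhTM mouse 2 at 99.92% of probes to within 0.1%, and its column for rhTM mouse 2 equalled that of saline mouse 1 at 99.95%. Which assignment is right could not be told from the labels or methods. The scanner output was followed, and the table's result is given beside the 10 genes and the gene lists. By the table, slide 2 held rhTM mice 2 and 3 and no saline mouse.

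Treatment with rhTM left none of the 10 genes with a difference beyond the spread between mice. In the limma fit over 16370 genes, 0 of the 10 passed an adjusted p of 0.05 (background: 0% of all genes in either direction), and 0 of the 10 had an unadjusted p under 0.05 (background: 1.84%, and 14.1% by the table, where again 0 of the 10 had). The adjusted p was 0.9998 for every one of them. The groups overlapped for all 10. Over all genes, 2.9% had their 3 rhTM values above all saline values and 2.61% below, so overlap does not set the 10 apart. The mean log2 signal was lower with rhTM for 9 of the 10 genes, against 49.8% of all genes, and higher for 1, Sftpd, against 50.2%. The median log2 difference of the 10 genes, rhTM minus saline, was -0.13, beside 0.00066 over all genes. It was -0.09 by the table, beside -0.03 over all genes, and 0.02 without rhTM mouse 1. The plot of the signal on each array shows the overlap gene by gene.

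**Figure D1:**
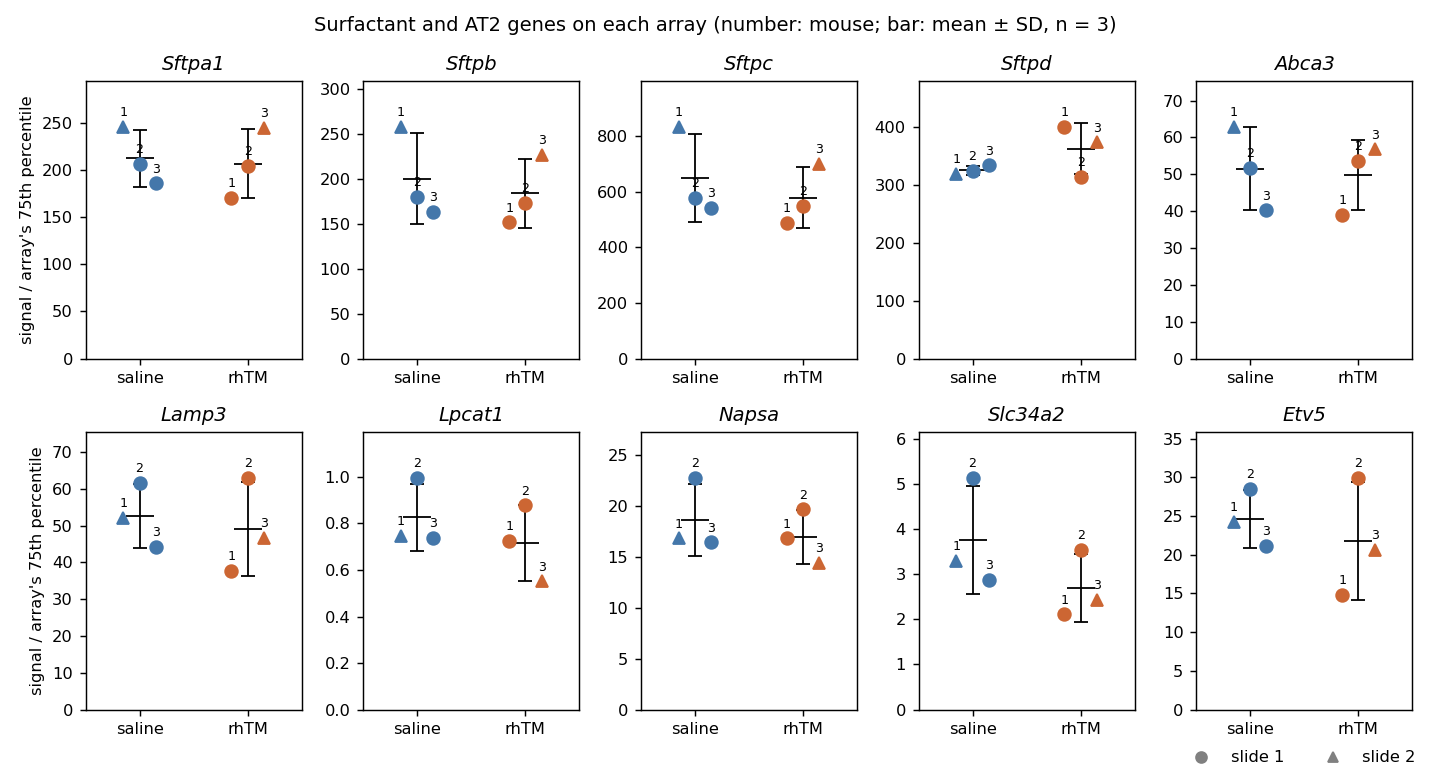
Signal of the 10 genes on each array, as multiples of that array's 75th percentile, for 3 saline and 3 rhTM mice. Numbers are mice, triangles are arrays of slide 2, and bars are the mean ± SD. The groups overlap for every gene, and Sftpa1, Sftpb, Sftpc and Abca3 were brightest on saline mouse 1.

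Sftpc encodes SP-C, the protein by which AT2 cells are most often marked. Its signal was 833, 579 and 542 in saline mice 1, 2 and 3 and 489, 550 and 700 in rhTM mice 1, 2 and 3. The means were 651 ± 158 with saline and 579 ± 109 with rhTM (SD, n = 3). Saline mouse 1 was the highest of the 6 and rhTM mouse 1 the lowest, and the other four lay between. The log2 difference was -0.16, with a 95% interval from -0.67 to 0.35.

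Sftpb encodes SP-B, without which lamellar bodies and tubular surfactant do not form. Its brighter probe read 257, 180 and 163 with saline and 151, 173 and 226 with rhTM. The log2 difference was -0.12 (95% interval -0.65 to 0.42). As for Sftpc, the 2 brightest arrays were saline mouse 1 and rhTM mouse 3, which shared a slide. A second, dimmer probe of Sftpb read 18.4, 23.1 and 16.9 with saline and 13.0, 20.5 and 15.6 with rhTM, a log2 difference of -0.27. On this probe saline mouse 2 and rhTM mouse 2 were the brightest, so that the 2 probes of one gene ranked the arrays differently.

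Sftpa1 encodes SP-A, the more abundant of the surfactant collectins. Its signal was 246, 207 and 186 with saline and 171, 205 and 245 with rhTM. The log2 difference was -0.05 (95% interval -0.47 to 0.38), and the highest value of each group lay again on slide 2.

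Sftpd encodes the other collectin, SP-D, and was the gene that stood apart from the rest. Its signal was 319, 325 and 334 in the saline mice, relative to the mean the narrowest spread of the 10 genes in that group, and 400, 314 and 374 in the rhTM mice. Of the rhTM mice, 1 and 3 lay above all saline mice and mouse 2 below them. The means were 326 ± 7.6 and 363 ± 44.2 (SD, n = 3), a log2 difference of 0.15 with a 95% interval from -0.17 to 0.46. In an exact two-sided permutation test, whose smallest possible p with 3 against 3 is 0.10, p was 0.40. Of 22 alternative settings, 14 altered the value, and under these it lay between 0.07 and 0.30 and passed the threshold under none.

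Abca3 encodes the lipid transporter of the lamellar body membrane. Its signal was 62.8, 51.8 and 40.2 with saline and 38.9, 53.7 and 56.8 with rhTM, a log2 difference of -0.05 (95% interval -0.57 to 0.48). Lamp3, also known as DC-LAMP and expressed by mature dendritic cells as well as AT2 cells, read 52.1, 61.5 and 44.2 with saline and 37.7, 62.8 and 46.7 with rhTM, a log2 difference of -0.12 (95% interval -0.64 to 0.41). The highest Lamp3 value of both groups was mouse 2. Lpcat1, an acyltransferase that makes the dipalmitoyl form of phosphatidylcholine, read 0.745, 0.994 and 0.738 with saline and 0.724, 0.877 and 0.551 with rhTM. Its log2 difference was -0.22 (95% interval -0.72 to 0.29), and it lay between -0.44 and -0.04 under the 14 alternatives that altered it.

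Slc34a2 encodes the sodium-phosphate cotransporter of the AT2 cell, and loss of its function in people leads to calcium phosphate stones in the alveoli. It had the largest difference of the 10 genes. Its signal was 3.29, 5.13 and 2.87 with saline and 2.11, 3.55 and 2.43 with rhTM. Mice 1 and 3 of the rhTM group lay below all saline mice, and rhTM mouse 2 lay above saline mice 1 and 3. The means were 3.76 ± 1.20 and 2.70 ± 0.76 (SD, n = 3), and the log2 difference was -0.47 ± 0.28 (SE), with a 95% interval from -1.14 to 0.19. The unadjusted limma p was 0.136, and p was 0.30 in the exact two-sided permutation test. Its difference lay between -0.83 and -0.23 under the 14 alternatives that altered it, and passed the threshold under none.

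Etv5, an ETS family transcription factor that acts downstream of FGF signals and maintains AT2 identity, read 24.2, 28.5 and 21.1 with saline and 14.8, 29.9 and 20.7 with rhTM. Its log2 difference was -0.23 (95% interval -0.86 to 0.41). Both the highest and the lowest value came from the rhTM group, with SDs of 7.62 with rhTM and 3.73 with saline. Napsa read 16.8, 22.7 and 16.4 with saline and 16.8, 19.7 and 14.4 with rhTM, a log2 difference of -0.13 (95% interval -0.57 to 0.31). A second Napsa probe gave -0.24. On both Napsa probes saline mouse 2 was the brightest array and rhTM mouse 3 the dimmest.

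**Figure D2:**
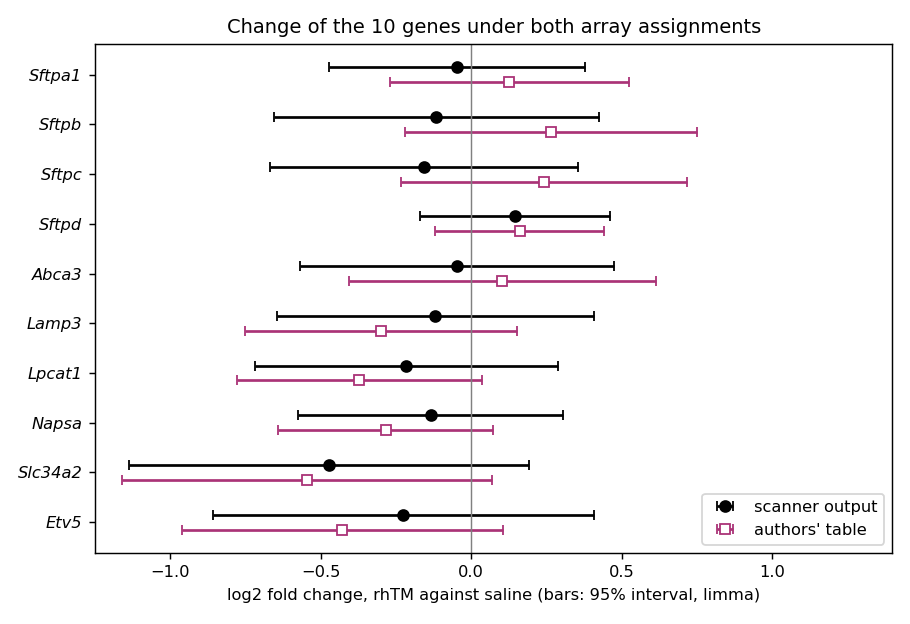
Log2 difference of each gene, rhTM minus saline, with its 95% interval from limma, by the scanner output (filled circles) and by the authors' table (open squares). Every interval crosses 0, and Sftpa1, Sftpb, Sftpc and Abca3 lie on opposite sides of 0 under the 2 assignments.

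The direction for 4 genes depended on which assignment of the arrays was used. By the authors' table, the log2 difference was 0.13 for Sftpa1, 0.26 for Sftpb, 0.24 for Sftpc and 0.10 for Abca3, all above 0. It stayed above 0 for Sftpd, at 0.16. It was further below 0 than by the scanner output for the other five genes, at -0.30 for Lamp3, -0.37 for Lpcat1, -0.28 for Napsa, -0.54 for Slc34a2 and -0.43 for Etv5. By the table, 5 of the 10 genes were thus higher with rhTM, against 44.4% of its 16320 genes, and 5 lower, against 55.6%, and the lowest adjusted p among the 10 was 0.378. The groups overlapped for all 10 by the table too, while 9% of its genes had all rhTM values above and 12.7% all rhTM values below the saline values. By the table both arrays of slide 2 belonged to rhTM. With the slide as a block in the fit of the table, a setting added after the data were seen, the 4 genes were again below 0, at -0.22, -0.18, -0.19 and -0.31, and Sftpd was at 0.30. Since slide 2 then holds rhTM mice alone, that fit sets rhTM mouse 1 alone against the saline mice.

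For 6 of the 10 genes the 2 slides, which held different mice, differed by more than the groups did, as the plot of slide differences shows. The mean log2 signal of the 2 arrays of slide 2, minus that of the 4 arrays of slide 1, was 0.53 for Sftpb, 0.50 for Sftpc, 0.39 for Abca3 and 0.35 for Sftpa1. It was 0.02 for Sftpd, -0.02 for Etv5 and -0.03 for Lamp3. It was -0.20 for Slc34a2, -0.27 for Napsa and -0.37 for Lpcat1. Each slide held both groups by the scanner output, so the treatment could be compared within it. Within slide 1 the log2 difference was -0.07 for Sftpa1, -0.08 for Sftpb and -0.11 for Sftpc, and within slide 2, with 1 mouse of each group, -0.01, -0.19 and -0.25. Slc34a2 was at -0.49 within slide 1 and -0.44 within slide 2, and Sftpd at 0.10 and 0.23. With the slide as a block, the lowest adjusted p of the 10 genes was 0.922.

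Very bright genes as a class were brighter on slide 2, in a comparison made after the values were seen. Of 163 genes with a mean signal of at least 100000, which include all 4 surfactant protein genes, 75.5% were higher on slide 2, with a median log2 difference of 0.17. Of the 1788 genes with a mean signal from 10000 up to that limit, which include Abca3, 37.2% were higher on slide 2 and the median was -0.07. Among these values Sftpa1, Sftpb, Sftpc and Abca3 lay above the median of their class and Sftpd below it. The dimmer Sftpb probe, with a mean signal of 13635, differed between the slides by -0.08. The part of brightness in these differences was not tested.

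**Figure D3:**
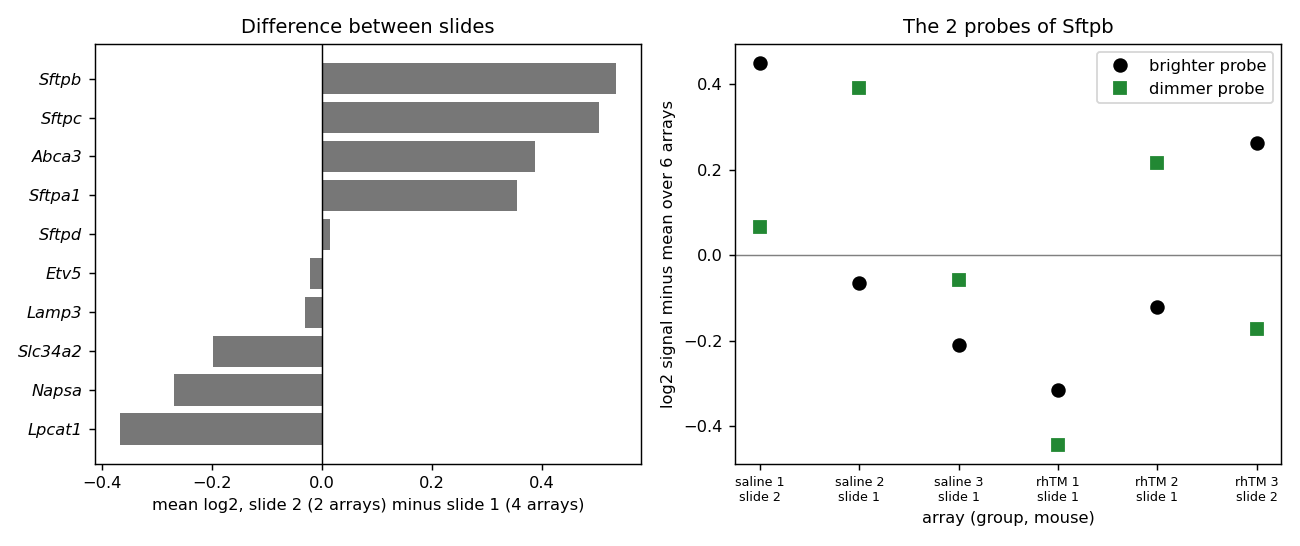
Left, difference of the mean log2 signal between slide 2 (2 arrays) and slide 1 (4 arrays) for each of the 10 genes, from 0.53 for Sftpb to -0.37 for Lpcat1. Right, deviation of both Sftpb probes from their own mean over 6 arrays (log2). The brighter probe is highest on the slide 2 arrays and the dimmer probe on the arrays of mouse 2 of each group.

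Across the 6 arrays the genes fell into 2 sets and a single gene, which were drawn after the values were seen and are given as a description without a test. Sftpa1, Sftpb, Sftpc and Abca3 followed each other, with a Pearson r from 0.85 to 0.99 in their 6 pairs (n = 6 arrays), 0.99 for Sftpb with Sftpc and 0.96 for Sftpa1 with Sftpb. Lamp3, Lpcat1, Napsa, Slc34a2 and Etv5 formed the second set, with r from 0.60 to 0.98 in 10 pairs, 0.98 for Lamp3 with Etv5 and 0.97 for Lpcat1 with Napsa. Between the sets r had a median of 0.17 over 20 pairs and ran from -0.36 to 0.64. Sftpd had a negative r with each of the other genes, from -0.27 with Sftpb to -0.90 with Etv5. The dimmer Sftpb probe sat with the second set, with r of 0.97 with Slc34a2, 0.96 with Etv5 and 0.95 with Lamp3, and only 0.19 with the brighter probe of its own gene. The dimmer Napsa probe had r of 0.86 with the brighter one. All points of these correlations share the same 6 arrays, their slides and their scaling.

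The lowest and highest values gathered on a few arrays. The array of rhTM mouse 1 was the lowest of the 6 for 7 of the 10 genes, against 26% of all genes. Saline mouse 1 was the highest for 4 of the 10, against 12.8% of all genes, and saline mouse 2 for 3, against 21.2%. Saline mouse 2 or rhTM mouse 2 was the highest for 5 of the 10, against 36% of all genes. The mean of the 10 centred log2 profiles was 0.15, 0.20 and -0.14 in saline mice 1, 2 and 3 and -0.28, 0.10 and -0.03 in rhTM mice 1, 2 and 3. The SD of the log2 signal over the 6 arrays had a median of 0.28 over the 10 genes and 0.20 over all genes. Without rhTM mouse 1, 6 of the 10 genes had a higher mean with rhTM in place of 1, with log2 differences of 0.08 for Sftpa1, 0.01 for Sftpb, 0.12 for Abca3, 0.06 for Lamp3 and 0.02 for Etv5.

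Markers of other cell types also differed on that array. The 9 neutrophil genes tested had a summed signal of 1237 in rhTM mouse 1 and 947 to 1113 in the other five mice, and the 8 erythroid genes 1601 against 1115 to 1477. The mean log2 deviation from the 6-array mean in rhTM mouse 1 was 0.30 for the neutrophil list, 0.68 for the erythroid list and 0.54 for 9 ciliated cell genes. It was -0.34 for 10 endothelial genes, -0.44 for 9 fibroblast genes and -0.20 for 11 genes of the AT1 cell, the thin gas exchange cell of the alveolus. For 9 genes shared by all epithelia it was 0.19. Other arrays stood apart too, with ciliated cell genes at -0.63 in rhTM mouse 2 and 0.37 in rhTM mouse 3, and fibroblast genes at 0.43 in rhTM mouse 3. The part of these markers in the low AT2 values of that mouse was not tested.

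**Figure D4:**
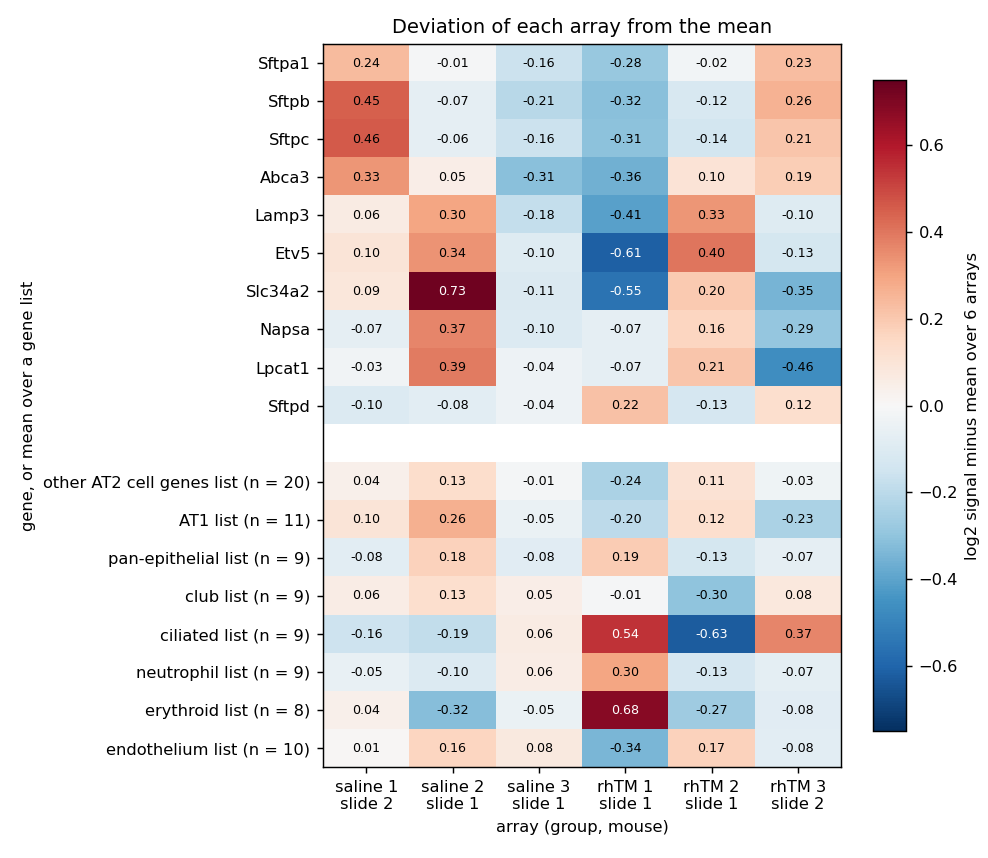
Log2 signal of each of the 10 genes, and of the mean over 8 lists of cell type genes, minus its own mean over the 6 arrays. Red is above and blue below that mean. The column of rhTM mouse 1 is low for 9 of the 10 genes and high for Sftpd and for the ciliated, neutrophil and erythroid lists.

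By group, the marker lists overlapped in their summed signal. Neutrophil genes, led by S100a9, summed to 947 to 1113 with saline and 972 to 1237 with rhTM, and 6 of 9 were higher with rhTM, at a median log2 difference of 0.05, and 0.22 by the table. Erythroid genes, led by Hba-a1, summed to 1161 to 1477 and 1115 to 1601, with 7 of 8 higher at a median of 0.14, 8 of 8 by the table at 0.28, but 2 of 8 without rhTM mouse 1. Ciliated cell genes, led by Tppp3, summed to 40.9 to 44.6 and 30.7 to 61.9, with 9 of 9 higher and a median log2 difference of 0.16, 0.48 by the table, but 4 of 9 without rhTM mouse 1. AT1 genes, led by Ager, summed to 358 to 423 and 328 to 391, with 2 of 11 higher, 0 without rhTM mouse 1, 4 without rhTM mouse 3 and 1 by the table. Club cell genes, led by Scgb1a1, summed to 1199 to 1255 and 1045 to 1365, with 3 of 9 higher, 5 without rhTM mouse 2, 1 without rhTM mouse 3 and 6 by the table. Alveolar macrophage genes, led by Chil3, summed to 347 to 365 and 336 to 396, with 6 of 9 higher and 3 of 9 by the table. Endothelial genes, led by Egfl7, summed to 383 to 423 and 352 to 411, with 4 of 10 higher at a median of -0.16. The table put 3 of these 10 higher at a median of -0.35, with all rhTM values below the saline values in 3, as in 12.7% of all genes, and without rhTM mouse 1 the median was 0.04. Fibroblast genes, led by Inmt, summed to 264 to 304 and 168 to 299, with 7 of 9 higher, 4 without saline mouse 3, 3 without rhTM mouse 3 and 5 by the table. The general epithelial genes, led by Krt18, summed to 101 to 125 and 96.0 to 121, with 4 of 9 higher at a median of -0.09, 5 by the table at 0.03, and 2 without rhTM mouse 1. No gene of these lists passed an adjusted p of 0.05, and 1 club cell gene, Bpifa1, had an unadjusted p under it. In 3 of the 9 club cell genes, Aldh1a1, Bpifa1 and Ces1d, all rhTM values lay below the saline values, as in 2.61% of all genes, and in 0 of the 9 by the table. These 3 genes were named after their values were seen.

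Other genes of the AT2 cell were then read in the same fit. Of 20 further AT2 genes, 5 had a higher and 15 a lower mean with rhTM, with a median log2 difference of -0.05. The table put 5 of the 20 higher, at a median of -0.17. No gene passed an adjusted p of 0.05, and 0 had an unadjusted p under 0.05. The brightest, Ctsh, a cathepsin that takes part in processing SP-B and SP-C, read 162, 161 and 142 with saline and 123, 172 and 168 with rhTM. Lgi3, a secreted leucine-rich repeat protein, had the largest difference. Its signal was 4.36, 5.60 and 3.91 with saline and 1.24, 5.04 and 3.29 with rhTM, a log2 difference of -0.74 ± 0.48 (SE). The low value came from rhTM mouse 1, and the other two lay within or close to the saline range. Cxcl15, the lungkine chemokine, was also lowest in that mouse, with 3.98 in rhTM mouse 1 against 14.2 and 9.06 in the other two and 8.43 to 13.2 with saline. Bex2 had a log2 difference of -0.38 ± 0.31 (SE), with 1.98 in rhTM mouse 1 against 3.16 to 4.72 on the other five arrays. The mean profile of the 20 genes had r of 0.91 with that of the 10 genes (n = 6 arrays). Some lists of other cell types had r of similar size (n = 6 arrays each). The AT1 list had 0.82, the endothelial 0.77 and the fibroblast 0.59. The neutrophil list had -0.88, the erythroid -0.79 and the ciliated -0.76. The alveolar macrophage list had 0.14, the club cell list -0.03 and the general epithelial list -0.23.

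Genes of lipid synthesis supply the AT2 cell with the fatty acids and phospholipids of surfactant. Of 26 such genes tested, 14 were higher and 12 lower with rhTM, with a median of 0.01, and 0 passed the adjustment or an unadjusted p of 0.05. By the table, and likewise after quantile scaling, 9 of 26 were higher. Prdx6, a peroxiredoxin with phospholipase activity towards surfactant lipid, was the brightest, at 233, 177 and 162 with saline and 197, 173 and 210 with rhTM. Elovl6, a fatty acid elongase, read 1.85, 0.761 and 1.23 with saline and 2.52, 1.30 and 1.74 with rhTM, a log2 difference of 0.57 ± 0.37 (SE). Scd2, a stearoyl-CoA desaturase, read 25.4, 26.5 and 19.5 with saline and 10.0, 24.8 and 19.7 with rhTM, with rhTM mouse 1 again the lowest. Pltp, the phospholipid transfer protein, had a log2 difference of -0.46 ± 0.23 (SE). None of these 4 genes separated the groups by the scanner output. Of the 26 genes 1 did, Acsl4, an acyl-CoA synthetase, at 17.9, 18.0 and 17.1 with saline and 24.0, 20.1 and 19.1 with rhTM, against 2.9% of all genes, and its groups overlapped by the table. By the table, 3 of the 26 had all rhTM values above the saline ones, Prdx6 and Elovl6 among them, and 3 below, beside 9% and 12.7% of all genes. Acsl4 was named after its values were seen.

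Among 14 transcription factors of the AT2 cell, 9 were higher and 5 lower with rhTM, with a median of 0.08, and none passed the adjustment. The table put 11 of 14 higher, at a median of 0.05. Nkx2-1, whose protein drives the surfactant genes, read 5.60, 5.27 and 4.89 with saline and 4.96, 5.17 and 5.53 with rhTM, a log2 difference of -0.01. It is named here for its role, a choice made after its values were seen. Stat3, which carries the interleukin-6 signal, read 11.5, 16.9 and 16.6 with saline and 30.8, 16.2 and 14.3 with rhTM. The high value was that of rhTM mouse 1, and the other two rhTM mice lay within the saline range. Etv4, an ETS factor like Etv5, had a log2 difference of 0.24 ± 0.18 (SE), and Elf5 of 0.22 ± 0.13 (SE), which were 0.18 and 0.05 by the table.

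Genes that set the size of the surfactant pool or clear it showed the most one-sided count of the 5 pathway lists, with 1 higher and 15 lower of 16 and a median of -0.17, again with 0 past the adjustment and 0 at an unadjusted p under 0.05. The 1 higher gene was Adgrf5, the receptor GPR116 through which AT2 cells sense the surfactant pool, at 25.7, 27.3 and 31.6 with saline and 32.0, 28.6 and 27.3 with rhTM. Csf2, the cytokine GM-CSF on which alveolar macrophages depend to clear surfactant, read 2.23, 2.42 and 2.07 with saline and 0.913, 3.35 and 2.07 with rhTM, so that both the lowest and the highest array were rhTM. Pla2g15, the lysosomal phospholipase of macrophages, read 1.78, 2.61 and 1.84 with saline and 1.35, 2.29 and 1.49 with rhTM. Pla2g1b had a log2 difference of -0.27 ± 0.29 (SE). The count rested in part on single arrays. It was 6 higher of 16 without saline mouse 2, 5 without rhTM mouse 3 and 4 without rhTM mouse 1. By the table, 0 of 16 were higher, and 7 of the 16 had all rhTM values below the saline values, as did 12.7% of all genes.

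Genes that AT2 cells express while turning into AT1 cells after injury had the widest values. Of 12 genes, 7 were higher and 5 lower with rhTM, with a median of 0.02, and 2 were higher without rhTM mouse 1. Areg, the EGF receptor ligand amphiregulin, read 0.031, 0.053 and 0.037 with saline and 0.186, 0.034 and 0.087 with rhTM, a log2 difference of 1.07 ± 0.58 (SE). Sfn, which encodes 14-3-3 sigma, read 4.41, 6.76 and 6.72 with saline and 24.3, 5.59 and 5.44 with rhTM. Ndrg1 read 8.63, 8.37 and 7.69 with saline and 22.5, 7.53 and 9.57 with rhTM. In all 3 genes the highest array was rhTM mouse 1, the one on which most of the surfactant genes were lowest. Lgals3, which encodes galectin-3, was the brightest and had a log2 difference of 0.01. The table put 8 of the 12 higher, at a median of 0.09, and Lgals3, at 0.26, and Ndrg1, at 0.65, were the 2 genes with all rhTM values above the saline values, beside 9% of all genes. In 1 of the 12, Krt19, all were below by the table, beside 12.7%.

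Genes outside the 10 whose log2 signal followed their mean profile most closely were Sh3rf3, S1pr2, Kat6a, Adra1a and C2, with r from 0.989 to 0.990 over the 6 arrays. Those most opposed to it were Olfr1362, Shd, Lor, Rsf1 and Zscan18, with r from -0.994 to -0.991. With 6 arrays and 16370 genes such values are a description. S1pr2, a receptor for sphingosine 1-phosphate, read 2.04, 2.21 and 1.49 with saline and 1.28, 1.85 and 1.73 with rhTM. C2, a complement component, read 20.6, 21.9 and 16.1 with saline and 13.3, 18.9 and 17.3 with rhTM. In both genes the saline and rhTM values overlapped, and rhTM mouse 1 was the lowest.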

How the data were processed

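Arrays of lung RNA came from 3 mice given saline and 3 given rhTM, and the sample labels gave the groups. The authors deposited scanner output of Agilent Feature Extraction (10.7.3.1 per the file headers, 9.1 per the labels), whose processed signal is an intensity corrected for background within an array, with no scaling across arrays. A table of the same intensity values, with 2 columns exchanged, was deposited too and served as an alternative.

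Control spots were dropped, as were 398 of 56605 probes that had nothing but outlier-flagged spots on an array, and repeated spots were averaged. The log2 signal was set relative to the 75th percentile of its array. Accessions without version were matched to RefSeq genes of GRCm38.p6 (32994 probes, 22911 genes). Since the array was designed on a different build, coordinates are given for RefSeq promoters only. A probe had to be well above background on all 3 arrays of a group, and the probe with the highest mean signal stood for its gene (16370 genes). List genes that were not on the array or not tested included Rtkn2, Siglec5, Ly6g, Hbb-bs, Ahsp and Pcyt1b.

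Groups were compared with limma 3.58.1 in R 4.3.3 (lmFit and eBayes), p-values were adjusted by Benjamini-Hochberg across the genes tested, and the threshold was 0.05. An exact permutation test (two-sided) was run for each of the 10 genes. The fit was tested on simulated data. With 3 arrays per group the precision is limited. The 10 genes and all lists were chosen with earlier results of these data known. Named besides the 10 genes are the brightest gene and the 3 with the largest change of each pathway list, the brightest of each marker list, and the 5 genes with the highest and the 5 with the lowest r with the mean profile. Alternatives were normexp (offset 50, on median spot signals), quantile scaling, a 75th percentile over probes detected on every array, scaling to epithelial genes, the authors' table, other filters and probe choices, the slide or mouse number as a block, each array left out, both exchanged arrays left out and the methods' t-test. Added after the data were seen were fits of the table that blocked on slide or left out rhTM mouse 1.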

Additional observations from a re-analysis of the deposited data

How the results depend on the processing

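Over 22 alternative settings, 0 of 220 values of the 10 genes passed the adjustment (lowest adjusted p 0.0669), and 23 changed sign, none of them for Sftpd, Slc34a2 or Lpcat1. No sign changed under 16 settings. Of these, 7 (both filters, 2 probe choices, both blocks and the methods' t-test) return the same value for all 10 genes and say nothing of stability, the mean of probes altered 2 genes, and epithelial scaling shifts every gene alike. By the authors' table the log2 difference was 0.13 for Sftpa1, 0.26 for Sftpb, 0.24 for Sftpc and 0.10 for Abca3, without both exchanged arrays 0.059, 0.11, 0.063 and 0.043, and by the table without rhTM mouse 1 0.30, 0.49, 0.46 and 0.31, with 5 genes higher under each of these. With single arrays left out it ran from -0.18 to 0.082 for Sftpa1, -0.28 to 0.080 for Sftpb, -0.30 to 0.034 for Sftpc, -0.21 to 0.12 for Abca3, -0.31 to 0.056 for Lamp3, -0.25 to 0.017 for Napsa and -0.48 to 0.025 for Etv5, with 1 to 6 genes higher. The cause was not tested. The median of the 10 genes ran from -0.24 to 0.02, the latter without rhTM mouse 1. An unadjusted p under 0.05 was reached by Slc34a2 without rhTM mouse 2 (0.0420) and with the replicate block, by Etv5 in the table blocked on slide (0.0118), and by Sftpa1, Sftpb and Sftpc in the table without rhTM mouse 1 (0.0192, 0.0038 and 0.0067).

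The number of all genes past the adjustment was 0 to 5 with single arrays left out (5 without saline mouse 1 and 2 without rhTM mouse 1), 1 without both exchanged arrays, 433 by the table when blocked on slide, 602 by the table without rhTM mouse 1, and 0 under every other setting. Without that mouse the table's rhTM arrays are all of slide 2 and its saline arrays all on slide 1, so that treatment and slide cannot be told apart there, in the 602 genes or in the 10. The methods' t-test called 0 after adjustment, with 335 at an unadjusted p under 0.05, where limma had 302, or 426 with the slide block.

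Of the lists, quantile scaling gave 2 of 20 other AT2 genes and 9 of 26 lipid genes higher, and the mean of all probes 2 of 16 pool and clearance genes. The table gave 9 lipid genes (median -0.080) and 0 pool and clearance genes, and without rhTM mouse 1 9 (median -0.084) and 3. Blocking the table on slide gave medians of -0.18 for other AT2 genes, 0.17 for transcription factors, -0.43 for pool and clearance and 0.40 for transition genes, 11 of the latter being higher. With single arrays left out, 3 to 9 other AT2 genes, 0 to 6 pool and clearance genes and 2 to 8 transition genes were higher.

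The mouse numbers did not pair the arrays. Deviations of same-numbered mice correlated at -0.30, 0.44 and -0.45. With the replicate block, 0 genes passed the adjustment and 378 had an unadjusted p under 0.05. In this balanced design the block leaves each log2 difference as it was, at -0.47 for Slc34a2, whose unadjusted p was 0.0286 with the block (adjusted p 0.9998).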
